A study of Mus musculus with 2 samples.

Results

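Serine and one-carbon metabolism was described here through 9 enzyme genes: Phgdh, Psat1, Psph, Shmt1, Shmt2, Mthfd1, Mthfd2, Mthfd1l and Aldh1l2. They were taken by symbol from a table of 46095 genes. As a set they were chosen by their role in the pathway and with the counts of both libraries already known, so their differences stand below as a description and support nothing. All 9 were in the table, and 8 of them had at least 20 counts over both libraries; Aldh1l2 had 4. RNA was sequenced in 2 libraries of acute myeloid leukaemia (AML) cells from C57BL/6 mice aged 8 weeks, which were sorted from bone marrow as Mac1-positive, c-Kit-positive leukaemia-initiating cells. The genotype field of 1 library reads wild type and its title ends in Scr; that of the other reads P2x7-KO and its title ends in KD. P2x7 is an ATP-gated ion channel encoded by P2rx7. The oncogene or other cause of the leukaemia, the way in which P2x7 was lost, and whether a library holds 1 mouse or a pool do not appear in the sources used here.

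Cells make serine from the glycolytic intermediate 3-phosphoglycerate through the enzymes PHGDH, PSAT1 and PSPH. Serine hydroxymethyltransferases (SHMT1 in the cytosol, SHMT2 in mitochondria) split serine into glycine and a one-carbon unit carried by tetrahydrofolate. The MTHFD enzymes and ALDH1L2 then interconvert, release or oxidise these units, which are used to build purines and thymidylate and to remake methionine. The pathway is known for its activity in dividing cells, including leukaemia cells, and several of its genes are known targets of the transcription factor ATF4.

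Each group held a single library, so no test between genotypes could be run and no p-value is given. The raw counts summed to 12456212 in the wild-type-labelled and 12435916 in the P2x7-KO-labelled library. Counts were scaled with TMM (trimmed mean of M-values), and levels are in CPM (counts per 1000000 on that scale) with exact 95% Poisson intervals. A difference is the ratio of scaled counts with an exact 95% counting interval; it was called when it was at least 2-fold in either direction with an interval that excludes equality. These intervals cover counting error only and not the variation between mice, sorts or library preparations. P2rx7 itself stood at 229 and 543 counts, 2.27-fold higher (1.94 to 2.66) in the library labelled P2x7-KO, which goes against that label; its log2 ratio of 1.18 came under 2-fold, at 0.90, once length and GC content were allowed for. The libraries are therefore named by their labels, and no direction below is to be read as an effect of the loss of P2x7. Of the 8 genes checked for the labelled cells, all were detected in both libraries, among them Itgam for Mac1 and Kit for c-Kit. Itgam was called higher in the P2x7-KO-labelled library, at 2.90-fold (2.77 to 3.045), and the other 7 were not called. Kit stood 1.47-fold higher (1.32 to 1.64) there and Ptprc 1.93-fold (1.83 to 2.03). Once length and GC content were allowed for, their log2 ratios went from 0.56 to 0.19 and from 0.95 to 0.31. That of Itgam went from 1.54 to 1.26, still past 2-fold. Markers of other cells also differed: 8 of 11 monocyte and macrophage genes were called higher in the P2x7-KO-labelled library, with a summed level of 5343 against 2486 CPM, and 2 of 5 mast cell and basophil genes counted (of 6) were called lower, with 112 against 521 CPM summed. Mature neutrophil genes had 1 of 8 called higher and 1 lower (3175 against 3595 CPM), and both erythroid genes counted (of 5), the globin genes, were called higher at very low levels (8.25 against 0.904 CPM for all 5). Of 5 B lymphoid genes only Cd79b was counted, with 681 counts in the wild-type-labelled and 684 in the other library, and it was not called. Of 5 T and NK genes only Nkg7 was counted and it was called lower, with 307 and 105 counts; Klrb1c had 1 and 14 and Cd8a 0 and 5. Fcer1a was at 0 in both libraries, and Cd3e had 0 and 4 counts. Beside these marker calls, 10.8% of the 13363 genes with at least 20 counts were called higher and 8.95% lower. The part of cell composition in the differences below was not tested, and in bulk RNA fewer cells of a type cannot be told apart from less RNA per cell.

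Together the 9 genes held 14620 counts in the wild-type-labelled library (1202 CPM summed) and 9803 in the P2x7-KO-labelled library (770 CPM), a sum 1.56-fold lower (1.52 to 1.60) in the latter. Only Phgdh passed the 2-fold rule. That is 1 of 8 members called lower and 0 called higher, beside 8.95% of all 13363 genes counted called lower, 10.8% called higher and 19.8% called in either direction, so the share of calls was near that of genes at large. Of the 8, 7 lay below equality, where 49.8% of all genes counted did. Among these 7, the counting interval of Psph (0.815 to 1.13) included equality. The median log2 ratio of the 8 was -0.51, where the median of all genes counted was 0.00 and their middle 50% ran from -0.49 to 0.53. Corrected for length and GC content, these medians were -0.44 and -0.03. The 8 were far apart from each other, from a log2 ratio of -2.34 for Phgdh to 0.24 for Mthfd1l.

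Promoters are printed for the gene with the largest difference (Phgdh), the next lowest (Psat1 and Shmt2) and the only higher gene (Mthfd1l). They were thus picked by their ratios, and a link between sequence and ratio was not tested. Each run is the 250 bases before a RefSeq gene start (GRCm38.p6, the assembly of mm10), 5′ to 3′ on the gene's own strand. The printed Psat1 window lies inside the span annotated for Psat1 in GENCODE M21, chr19:15904678-15947337, and not at its outer end. Capitals mark motif matches in either strand.
Phgdh (chr3:98339970-98340219, minus strand): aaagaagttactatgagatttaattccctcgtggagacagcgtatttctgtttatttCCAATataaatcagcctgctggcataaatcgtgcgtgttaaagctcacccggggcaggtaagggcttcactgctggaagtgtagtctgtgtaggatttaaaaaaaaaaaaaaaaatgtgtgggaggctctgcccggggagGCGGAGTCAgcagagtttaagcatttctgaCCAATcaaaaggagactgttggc
Psat1 (chr19:15925060-15925309, minus strand): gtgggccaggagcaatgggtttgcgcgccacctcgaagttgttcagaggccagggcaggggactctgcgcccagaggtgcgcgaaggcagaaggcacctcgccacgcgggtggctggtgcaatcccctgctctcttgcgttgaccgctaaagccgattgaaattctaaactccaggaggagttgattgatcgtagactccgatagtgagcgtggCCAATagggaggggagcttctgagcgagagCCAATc
Shmt2 (chr10:127522445-127522694, minus strand): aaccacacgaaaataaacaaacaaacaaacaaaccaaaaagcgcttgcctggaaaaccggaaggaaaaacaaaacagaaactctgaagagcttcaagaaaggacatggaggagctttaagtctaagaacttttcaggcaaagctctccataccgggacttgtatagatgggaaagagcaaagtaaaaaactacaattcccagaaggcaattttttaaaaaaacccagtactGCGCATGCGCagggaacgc
Mthfd1l (chr10:3972825-3973074, plus strand): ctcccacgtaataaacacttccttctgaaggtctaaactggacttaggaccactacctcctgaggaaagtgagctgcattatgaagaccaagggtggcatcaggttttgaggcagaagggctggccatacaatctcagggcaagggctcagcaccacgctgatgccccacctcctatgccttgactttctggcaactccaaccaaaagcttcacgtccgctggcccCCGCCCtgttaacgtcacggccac

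The capitals in the Phgdh window are a pair of CCAAT boxes, 193 to 189 and 23 to 19 bases before the start, and a match to the antioxidant response element core TGACNNNGC on the reverse strand, 53 to 45 bases before it. The printed Psat1 window held CCAAT at 36 to 32 and 6 to 2 bases before the start. The window of the other Psat1 start, not printed, held no CCAAT but a GC box, GGGCGG, 11 to 6 bases before that start. The Shmt2 window held no CCAAT and no match to the antioxidant element. It held a palindrome with overlapping matches in both strands to GCATGCGC, the core of the NRF1 site, 19 to 10 bases before the start. The Mthfd1l window held a single GC box, GGGCGG in the reverse strand, 24 to 19 bases before the start. Its GC content of 54.4% lay between that of Shmt2 (40.8%) and of the printed Psat1 window (59.6%). RefSeq windows were matched for 8 of the 9 genes, 9 windows in all, as Psat1 has 2 starts. The C/EBP-ATF response element (CARE) core TGATGNAA, the E-box CACGTG and the E2F site TTTGGCGC were in 0 of these 9 windows, against 3.45%, 6.02% and 0.417% of all 32851 windows of the same length. The antioxidant element was in 1 of 9 (10.2% of all windows), CCAAT in 6 (33.8%), GGGCGG in 5 (32.7%) and GCATGCGC in 1 (2.26%); the last 3 motifs were added after the windows had been read. CCAAT was found for Phgdh, Psat1, Psph, Shmt1, Mthfd1 and Mthfd2. It was thus also in front of Psph, whose ratio included equality. A match is a run of letters and no evidence of binding, and sites outside these windows were not searched.

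**Figure D1:**
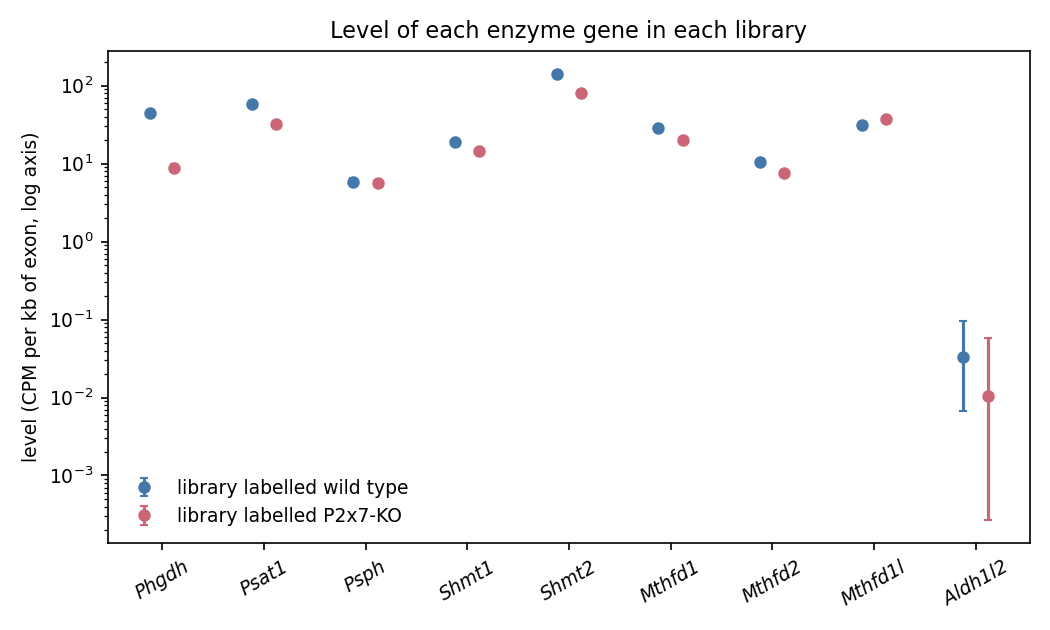
Level of each of the 9 enzyme genes in CPM per kb of exon (log axis) in the library labelled wild type (blue) and the one labelled P2x7-KO (red); bars are exact 95% Poisson intervals and cover counting error only. Shmt2 is the highest in both libraries, Phgdh is the third in the former and the sixth in the latter, and Aldh1l2 rests on 3 counts and 1 count.

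Phgdh encodes phosphoglycerate dehydrogenase, which commits 3-phosphoglycerate to serine synthesis. The gene lies at chr3:98313170-98339990 on the minus strand, with 13 blocks of exon sequence in the mm10 annotation of GENCODE M21. Phgdh had 1361 counts in the wild-type-labelled library, 111.9 CPM (106.0 to 118.0), and 281 counts in the P2x7-KO-labelled library, 22.1 CPM (19.6 to 24.8). The intervals are far apart, and the level was 5.07-fold lower (4.46 to 5.79) in the latter. Of all genes counted, 1.17% had a lower ratio. Ratios in these libraries vary with transcript length and GC content. A corrected log2 ratio was therefore also taken, relative to the smooth trend over both properties in the 12374 genes counted that have them (92.6%). The trend accounted for 18.7% of the variance of these log2 ratios, and intervals of corrected values take it as exact. With 1 library per label, a trend of the preparation and a difference between the cells cannot be told apart. For Phgdh the log2 ratio was -2.34 and the corrected one -1.93 (-2.12 to -1.74), still past 2-fold. The processed pseudogene Phgdh-ps1 had 0 counts in both libraries.

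Psat1 encodes phosphoserine aminotransferase, the enzyme of the second step. It lies at chr19:15904678-15947337 on the minus strand. There were 3022 counts (248.4 CPM, 239.7 to 257.4) in the wild-type-labelled library and 1761 (138.3 CPM, 131.9 to 144.9) in the other. Psat1 was thus 1.80-fold lower (1.69 to 1.91) in the P2x7-KO-labelled library, under the 2-fold rule with an interval that excludes equality. Its log2 ratio was -0.84, and the corrected one was close to it at -0.86.

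Psph encodes phosphoserine phosphatase, which releases free serine, and lies at chr5:129765558-129787449 on the minus strand. Its counts were 306 and 307, or 25.2 CPM (22.4 to 28.1) and 24.1 CPM (21.5 to 27.0). The intervals overlap, and the ratio of 0.958 (0.815 to 1.13) includes equality. Exons of Cct6a on the opposite strand cover 452 of its exon bases (10.4%), and since the sources do not give the strand setting of the counting, reads of both genes there cannot be told apart.

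The 3 steps of serine synthesis therefore differed by unequal amounts between the libraries. Within a library the ratio of 2 genes does not depend on the scaling. Its change between the libraries still carries the trends over length and GC content, for which these ratios between genes were not corrected. Corrected log2 ratios of Phgdh, Psat1 and Psph were -1.93, -0.86 and -0.07, beside -2.34, -0.84 and -0.06. Phgdh thus lay nearer to Psat1 and Psph when corrected. The level of Phgdh per kb was 0.771 of that of Psat1 in the wild-type-labelled library and 0.273 in the P2x7-KO-labelled one, and this ratio was 2.82-fold lower (2.45 to 3.26, exact conditional interval). Against Psph, Phgdh went from 7.75 to 1.59, a ratio 4.86-fold lower (3.94 to 5.99). Psat1 to Psph went from 10.1 to 5.84, 1.72-fold lower (1.45 to 2.05). In all 10 such ratios between genes were computed, chosen with the counts known. Between the most abundant synthesis gene and the most abundant folate gene, Psat1 to Shmt2, the ratio was 0.415 and 0.404, a change of 0.974 whose interval (0.905 to 1.05) includes equality. Their corrected log2 ratios, in contrast, lay apart, at -0.86 (-0.94 to -0.77) for Psat1 and -0.45 (-0.51 to -0.39) for Shmt2.

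Shmt2, the mitochondrial serine hydroxymethyltransferase gene at chr10:127517123-127522444 on the minus strand, was the most abundant of the 9 per kb in both libraries. It had 5324 counts, 437.7 CPM (426.0 to 449.6), in the wild-type-labelled library and 3184 counts, 250.04 CPM (241.4 to 258.9), in the P2x7-KO-labelled one. The difference was 1.75-fold lower (1.67 to 1.83). Its log2 ratio was -0.81 and the corrected one -0.45 (-0.51 to -0.39); among the 8 genes only Phgdh moved further with the correction. Its longest transcript has 2289 bases with a GC content of 57.4%, and that of Phgdh 1893 bases with 57.2%.

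Shmt1, the cytosolic counterpart at chr11:60788104-60811718 on the minus strand, had 906 counts, 74.5 CPM (69.7 to 79.5), and 714 counts, 56.1 CPM (52.0 to 60.3). It stood 1.33-fold lower (1.20 to 1.47) in the P2x7-KO-labelled library. The mitochondrial gene exceeded the cytosolic one 7.34-fold per kb in the wild-type-labelled library and 5.57-fold in the other, a ratio 1.32-fold lower (1.18 to 1.47). The corrected log2 ratios of Shmt2 and Shmt1 were nearly equal, at -0.45 and -0.42. Opposite-strand exons of Smcr8 share 184 bases (4.74%) with those of Shmt1.

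The folate enzymes behind the SHMT step went in different directions. Mthfd1, which encodes the trifunctional cytosolic enzyme (chr12:76255298-76319803, plus strand), had 1558 and 1129 counts. At 128.1 CPM (121.8 to 134.6) and 88.7 CPM (83.6 to 94.0) it stood 1.44-fold lower (1.34 to 1.56) in the P2x7-KO-labelled library. Mthfd2, which encodes the mitochondrial dehydrogenase and cyclohydrolase (chr6:83305691-83325908, minus strand), had 448 and 334 counts. Its levels of 36.8 CPM (33.5 to 40.4) and 26.2 CPM (23.5 to 29.2) gave a 1.40-fold lower value (1.22 to 1.62).

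Mthfd1l encodes the mitochondrial synthetase that releases formate for export to the cytosol, and lies at chr10:3973118-4167081 on the plus strand. It had 1692 counts, 139.1 CPM (132.5 to 145.9), in the wild-type-labelled library and 2092 counts, 164.3 CPM (157.3 to 171.5), in the P2x7-KO-labelled one. It was the only one of the 8 above equality, at 1.18-fold (1.11 to 1.26), and stayed above it with a correction for length alone (log2 ratio 0.15) and in the corrected log2 ratio (0.21). The ratio of Mthfd1l to Mthfd1 per kb went from 1.09 to 1.86, 1.71-fold higher (1.54 to 1.89), and that of Mthfd1l to Mthfd2 from 2.97 to 4.92, 1.66-fold higher (1.42 to 1.94). With Mthfd2 added to Mthfd1l, the mitochondrial to cytosolic ratio per kb went from 1.45 to 2.23. In summed raw counts not divided by length, it went from 1.37 to 2.15, 1.56-fold higher (1.42 to 1.72). Shmt2 to Mthfd1l, the first and the last mitochondrial step, went from 4.49 to 2.17, 2.07-fold lower (1.91 to 2.24). The log2 ratios of Shmt2 and Mthfd1l lay nearer to each other when corrected, at -0.45 and 0.21 beside -0.81 and 0.24.

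Aldh1l2, which encodes the mitochondrial formyl-tetrahydrofolate dehydrogenase (chr10:83487450-83534140, minus strand), had 3 counts and 1 count. At this depth 3 counts correspond to 0.247 and 0.236 CPM, so the gene was at or under the detection limit in both libraries and no fold is given. Its cytosolic relative Aldh1l1 had 26 and 16 counts, and Mthfd2l, the paralogue of Mthfd2, 41 and 44; both stand outside the naming rule. Mthfd2 exceeded Mthfd2l 20.8-fold and 14.5-fold per kb, a difference of 1.44-fold with an interval (0.896 to 2.31) that includes equality.

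**Figure D2:**
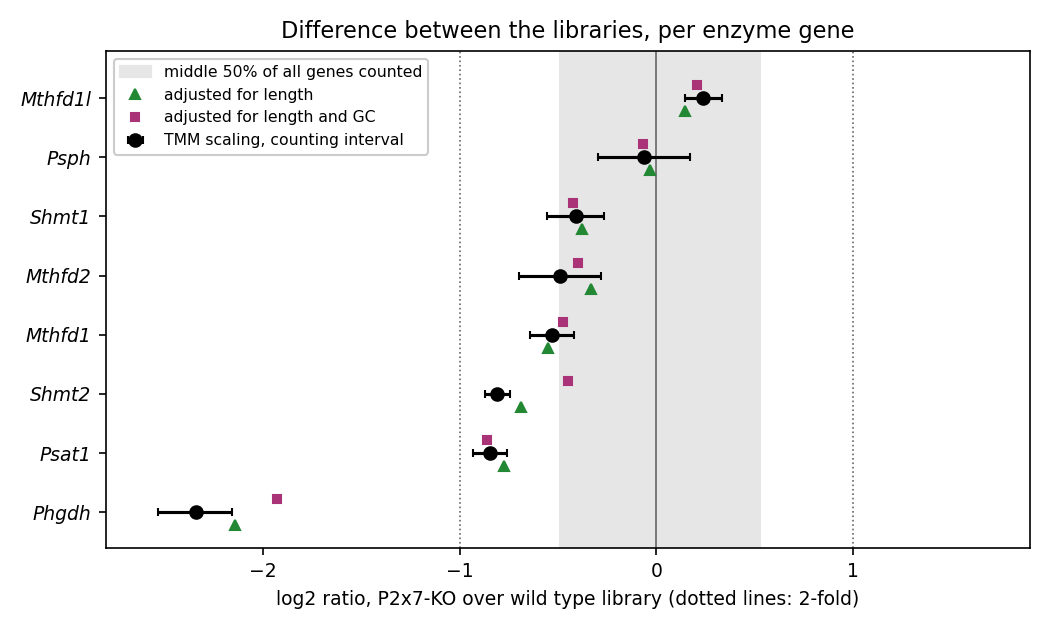
Log2 ratio of the P2x7-KO-labelled over the wild-type-labelled library for the 8 enzyme genes counted, with exact 95% counting intervals (black) and the values corrected for transcript length (green) and for length with GC content (purple); the grey band holds the middle 50% of all genes counted and dotted lines mark 2-fold. Phgdh alone lies past 2-fold, at -2.34, and Mthfd1l alone lies above equality, at 0.24.

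The order of levels per kb of exon, which allows genes to be compared, was not the same in both libraries. In the wild-type-labelled one it ran Shmt2 (140.8 CPM per kb), Psat1 (58.4), Phgdh (45.0), Mthfd1l (31.4), Mthfd1 (28.8), Shmt1 (19.2), Mthfd2 (10.6), Psph (5.81) and Aldh1l2 (0.033). Of these neighbours only the counting intervals of Mthfd1l (29.9 to 32.9) and Mthfd1 (27.4 to 30.3) overlapped. In the P2x7-KO-labelled one it ran Shmt2 (80.4), Mthfd1l (37.0), Psat1 (32.5), Mthfd1 (19.96), Shmt1 (14.4), Phgdh (8.88), Mthfd2 (7.52), Psph (5.57) and Aldh1l2 (0.010). There the overlapping neighbours were Phgdh (7.87 to 9.98) and Mthfd2 (6.74 to 8.37). These levels divide by the union of annotated exons, and isoforms in use are not known from counts per gene. Divided by the longest transcript, 3 neighbouring pairs changed places. Mthfd1 (39.5 CPM per kb) then stood above Mthfd1l (37.7) in the wild-type-labelled library, so the order of this pair is not settled there. In the P2x7-KO-labelled library Psat1 (52.8) then stood above Mthfd1l (44.6) and Mthfd2 (12.6) above Phgdh (11.7), while Shmt2 remained the highest in both libraries.

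As a share of the summed level per kb of the 9 genes, Phgdh took 13.2% in the wild-type-labelled library and 4.30% in the other, and Mthfd1l 9.23% and 17.95%. Shmt2 held 41.4% and 39.0%, Psat1 17.2% and 15.8%. By place in the pathway, the 3 serine synthesis genes together took 32.1% and 22.8%, the 4 mitochondrial folate genes 53.8% and 60.6%, and the 2 cytosolic ones 14.1% and 16.7%. In counts, the serine synthesis genes summed to 4689 and 2349, 2.09-fold lower (1.99 to 2.20) in the P2x7-KO-labelled library. The mitochondrial genes summed to a 1.39-fold lower level (1.35 to 1.44) and the cytosolic genes to a 1.40-fold lower one (1.32 to 1.49). These folds differ by less than their counting intervals. The sums were not corrected for length and GC content. The mitochondrial sum joins genes of both directions, with corrected log2 ratios of -0.45 (Shmt2), -0.40 (Mthfd2) and 0.21 (Mthfd1l). For the cytosolic genes these were -0.42 (Shmt1) and -0.47 (Mthfd1).

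**Figure D3:**
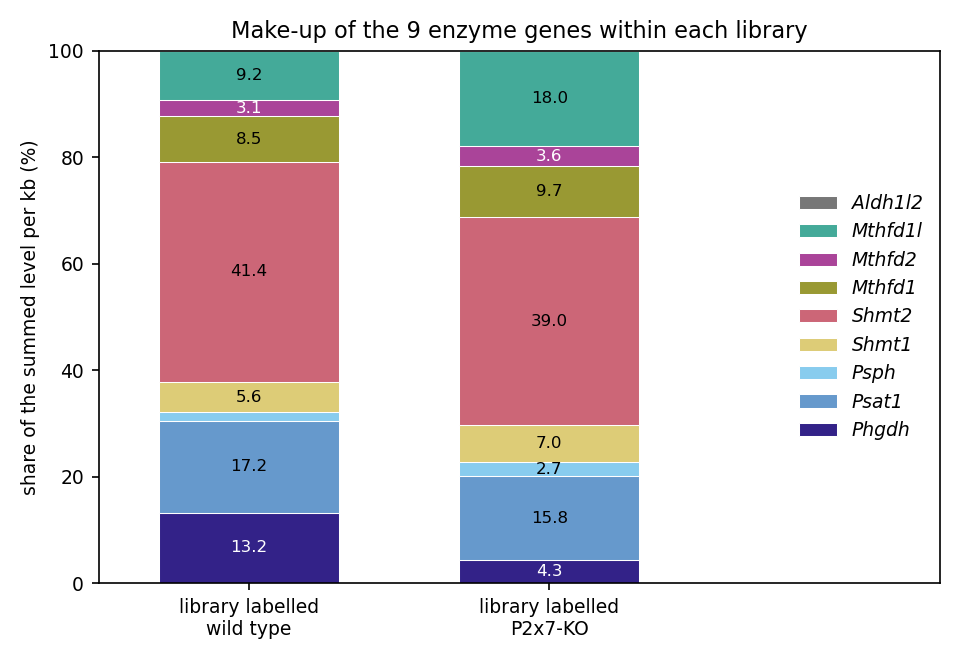
Share (%) of the summed level per kb of exon that each of the 9 enzyme genes took in the wild-type-labelled and the P2x7-KO-labelled library; numbers in the bars are the shares. The Phgdh segment is 13.2% and 4.30%, the Mthfd1l segment 9.23% and 17.95%, and Aldh1l2 is too small to be seen.

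The enzymes and carriers next to this pathway were taken from lists made with earlier results of these data known. For calls in these and the later lists, the share over all genes counted was 8.95% lower and 10.8% higher. Genes of folate uptake and retention had 4 of 7 members counted, with 0 called and a median log2 ratio of -0.25 (0.03 in corrected ratios). Fpgs, which adds the glutamate tail that keeps folate in cells, stood at 56.2 and 30.5 CPM, and Ggh, which removes it, at 20.9 and 38.6 CPM. They went opposite ways, 1.85-fold lower (1.63 to 2.10) and 1.85-fold higher (1.58 to 2.16). These amounts were alike only before correction, as the corrected log2 ratios were -0.51 for Fpgs and 0.76 for Ggh. Both genes were picked after their values were seen. Of 11 other folate enzymes 8 were counted and 0 called, with a median of -0.25 and, corrected, of -0.51; Tyms, the thymidylate synthase gene, also picked by its values, stood at 76.0 and 47.4 CPM.

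In the glycine cleavage system, which takes a one-carbon unit from glycine in mitochondria, Gldc had 0 counts in both libraries and Amt 8 in each. Gcsh stood at 46.7 and 30.7 CPM, 1.52-fold lower (1.33 to 1.73), and Dld, a subunit shared with other dehydrogenases, at 89.2 and 95.2 CPM, a ratio of 1.07 (0.982 to 1.16) that includes equality and a log2 ratio that turned from 0.09 to -0.11 when corrected. Of 11 serine and glycine carriers 7 were counted and 0 called, with a median of -0.22 and, corrected, of -0.51. The corrected medians of these carriers and of the other folate enzymes were thus both lower than that of the 8 enzyme genes, -0.44. The neutral amino acid carrier gene Slc1a5, picked after its value was seen, stood at 342.1 and 198.6 CPM, 1.72-fold lower (1.64 to 1.81). Its log2 ratio was -0.78 and the corrected one -0.51.

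Among 15 genes that use serine or glycine, 11 were counted, 3 called lower and 0 higher, with a median of -0.37 (corrected -0.31). Gcat, which encodes glycine C-acetyltransferase, had 263 and 66 counts, 4.17-fold lower (3.17 to 5.55) in the P2x7-KO-labelled library. The serine dehydratase-like gene Sdsl had 34 counts and 1 count, 35.6-fold lower with an interval from 5.97 to 1447. Cbs, the cystathionine beta-synthase gene, had 16 and 4 counts, 4.19-fold lower (1.35 to 17.2). All 3 stayed past 2-fold in corrected ratios, with Sdsl and Cbs at very low counts.

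Of 13 purine synthesis genes, all counted, 2 were called lower and 0 higher, with a median log2 ratio of -0.12 (corrected -0.28). These were Impdh1 (111.2 and 46.8 CPM, 2.38-fold lower, 2.16 to 2.62) and Impdh2 (205.6 and 92.2 CPM, 2.23-fold lower, 2.08 to 2.39), the IMP dehydrogenase genes of the guanine nucleotide branch. Both came under 2-fold when corrected, at log2 ratios of -0.88 and -0.94. Gart and Atic, whose enzymes take formyl groups from folate and which were picked after their values were seen, stood 1.51-fold (1.43 to 1.59) and 1.22-fold lower (1.16 to 1.29). The 12 methionine cycle genes had 9 counted and 0 called, with a median of -0.14 (corrected -0.29).

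Glycolysis, which supplies 3-phosphoglycerate, had 0 of 12 genes called and a median of -0.12 that turned to 0.04 in corrected ratios. Its summed level was 8486 and 7504 CPM. Of 15 proliferation genes 0 were called, with a median of -0.11 (corrected -0.24) and summed levels of 3945 and 3954 CPM. Mki67, the gene of the Ki-67 antigen and outside the naming rule, had 656.1 CPM in the wild-type-labelled and 1010 CPM in the other library; the log2 ratio was 0.62 and turned to -0.09 when corrected.

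**Figure D4:**
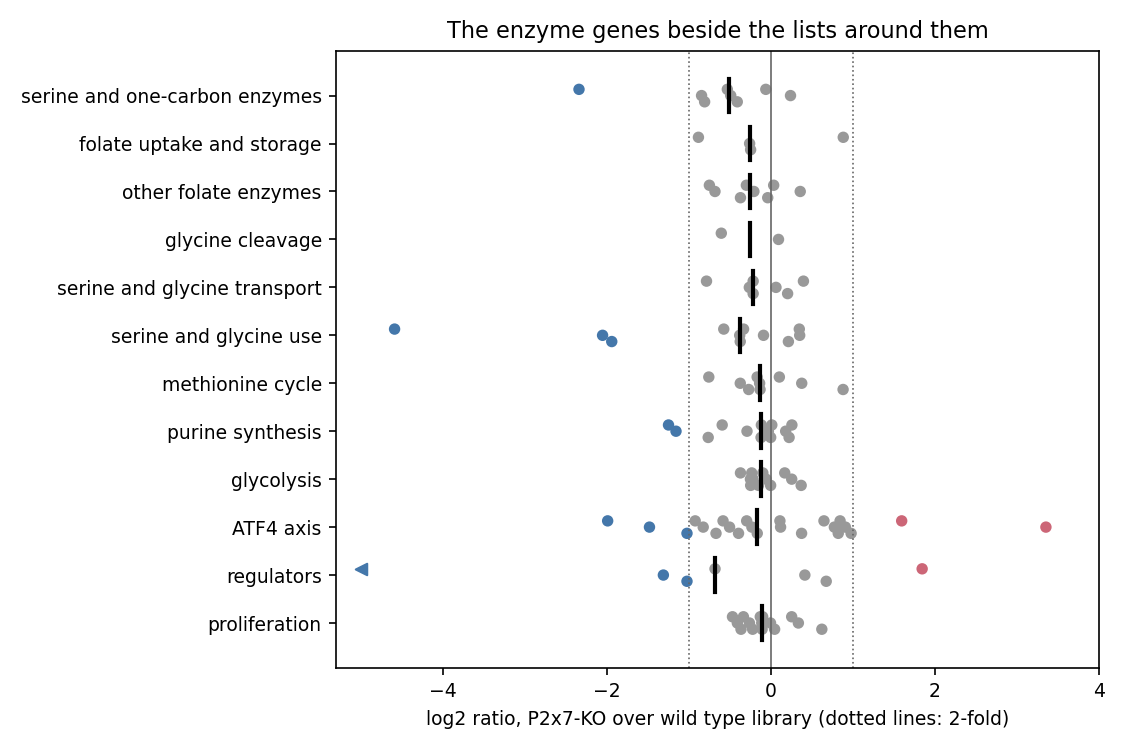
Log2 ratio of the P2x7-KO-labelled over the wild-type-labelled library for genes with at least 20 counts in the enzyme set and in 11 lists around it; blue and red points are genes called at least 2-fold lower and higher, grey points are not called, black bars are medians and dotted lines mark 2-fold. The arrow at the left edge is Mycn, which had 0 counts in the P2x7-KO-labelled library. The enzyme set has a median of -0.51 and 1 called gene, Phgdh.

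Among 7 genes known from other work as regulators of this pathway, 3 were called lower and 1 higher, with a median of -0.68 (corrected -0.50). Atf4, which encodes the transcription factor of the amino acid response, stood at 539.9 and 265.7 CPM, 2.03-fold lower (1.95 to 2.12) in the P2x7-KO-labelled library. Its log2 ratio of -1.02 came under 2-fold with total count scaling (-0.95), with that of DESeq2 (-0.99), with a correction for length (-0.85) and with one for length and GC content (-0.70). Myc stood at 311.1 and 194.05 CPM, 1.60-fold lower (1.52 to 1.69), with a log2 ratio of -0.68 and a corrected one of -0.50. Mycn had 191 counts and 0, at least 66.6-fold lower against a floor of 3 counts per library, where the counting interval allows 53.7-fold. Mycl had 48 and 182 counts, 3.62-fold higher (2.62 to 5.09). The MYC family genes thus did not share a direction. Ehmt2, a histone H3 lysine methyltransferase gene, had 86 and 36 counts, 2.501-fold lower (1.68 to 3.80). Kdm4c, a histone demethylase gene, was 1.60-fold higher (1.40 to 1.83), and Nfe2l2, which encodes NRF2, 1.33-fold higher (1.21 to 1.47). The log2 ratio of Kdm4c fell from 0.68 to 0.33 when corrected, and that of Nfe2l2 from 0.42 to 0.37.

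The wider ATF4 axis, the kinases that feed it and genes known as its targets, also went both ways. Of 26 genes 23 were counted, 3 called lower and 2 higher, with a median of -0.17 (corrected -0.21). In corrected ratios 2 were called lower and 3 higher, as Atf4 lost its call and another gene gained one. Of the 12374 genes with a corrected ratio, 729 were called lower and 959 higher. Lower beside Atf4 were the stress transcription factor genes Atf3 (176 and 46 counts, 4.01-fold, 2.88 to 5.67) and Ddit3, the CHOP gene (334 and 125 counts, 2.80-fold, 2.27 to 3.46). Higher were Ddit4, an inhibitor of mTORC1 signalling (315 and 998 counts, 3.03-fold, 2.66 to 3.45), and Stc2, which encodes the secreted protein stanniocalcin 2 (3 and 37 counts, a ratio of 11.8 with an interval from 3.73 to 59.7). The asparagine synthetase gene Asns, a target picked after its value was seen, stood 1.42-fold lower (1.21 to 1.67), a smaller difference than that of Phgdh. With a single library per label, whether these genes vary together with Phgdh over samples could not be examined.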

How the data were processed

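Gene expression was measured by RNA sequencing in 2 libraries, 1 per group; the labels' protocols name TRIzol and a column kit for the RNA. Per the submitters' processing notes, HISAT2 2.0.4 and mm10 were used. The deposited table gives raw counts per gene, and the sources used here do not name the counting program, annotation or strand setting. 

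Scaling factors came from edgeR 4.0.16 (TMM) in R 4.3.3. The interval of a ratio is Clopper-Pearson, on the share of counts in the P2x7-KO-labelled library; log2 ratios carry 0.5 added to each count. Exon lengths are unions of exons in GENCODE M21. Length and GC trends were splines with 5 degrees of freedom over 12374 genes (92.6% of those counted). Alternatives were total count, upper quartile and DESeq2 1.42.0 scaling, TMM without ribosomal protein, mitochondrial and histone genes, other count minimums, another fold and another pseudocount. Ratios and intervals were tested on simulated Poisson counts with total count scaling. These counts held no variation beyond counting error and no length or GC trend, and TMM was not applied to them. The simulation therefore checks the counting intervals only and not their fit to these libraries.

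The members and 18 further lists (181 entries, all in the table) were chosen with earlier results of these data known. By rule the genes named are the members, P2rx7, all regulators, lists of 4 or fewer genes, and up to 3 called genes per pathway list and direction, by the interval bound nearest equality; others are marked where they appear.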

Additional observations from a re-analysis of the deposited data

How the results depend on the processing

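Phgdh stayed past 2-fold under all 6 other scalings and adjustments, with log2 ratios from -2.37 (upper quartile) to -1.93 (length and GC content), and no other enzyme gene passed in either direction. Of 48 recomputed log2 ratios of the 8 genes 1 changed sign: Psph was at 0.01 with total count scaling. The median of the 8 ran from -0.54 to -0.44 over these settings. With a 1.5-fold rule 3 of the 8 members were lower and 0 higher, beside 2521 lower and 2825 higher of all 13363 genes counted. Shmt2 to Shmt1 was 5.88 and 4.46 in raw counts not divided by length. Over all genes, calls lower numbered 1196, against 768 after adjustment for length, 729 for length and GC content, 704 with at least 100 counts and 2521 at 1.5-fold; calls higher numbered 1447, against 959 for length and GC content and 2825 at 1.5-fold. Of 174 recomputed log2 ratios of 29 other genes named, 5 changed sign (Dld, Mki67 and Mthfd2l, each with a correction), 9 lost a call (Atf4, Impdh1, Impdh2 and P2rx7) and 1 gained one (Ggh, at 1.07 with length); the causes were not tested. Corrected for length and GC content, the list medians moved both ways: folate uptake from -0.25 to 0.03 and glycolysis from -0.12 to 0.04, but other folate enzymes from -0.25 to -0.51, serine and glycine carriers from -0.22 to -0.51, purine synthesis from -0.12 to -0.28, methionine cycle from -0.14 to -0.29 and proliferation from -0.11 to -0.24. With the longest transcript as length, serine synthesis took 34.3% and 25.5% of the summed level and the mitochondrial genes 51.9% and 58.1% in the wild-type-labelled and the P2x7-KO-labelled library; by raw counts serine synthesis took 24.0% in the latter, the mitochondrial genes 51.1% and 57.2% and the cytosolic genes 16.9% and 18.8%. No paired analysis was possible because each group holds 1 library; for the same reason no library could be left out.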
